A study of Drosophila melanogaster with 2 samples.

Results

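The 34 genes described here are the Notch signalling pathway of Drosophila melanogaster and its best known target locus, the Enhancer of split complex, E(spl). They were listed by gene symbol, with earlier results of these data known but without a rule on measured values, and all 34 were found among the 13968 protein-coding genes annotated on the 7 chromosome arms used. By role they are the receptor and its ligands (3 genes), factors that activate the ligand or cut the receptor (7), enzymes that glycosylate the receptor (3), factors of receptor trafficking and asymmetric division (6), nuclear factors (4), the basic helix-loop-helix (bHLH) repressors of E(spl) (7) and the Bearded family genes of E(spl) (4). Of these genes, 14 had a peak summit of the histone acetyltransferase Chameau (Chm) within 500 bp of an annotated start, beside 16.8% of all protein-coding genes, and 21 had one inside the gene or within 2 kb of it, beside 29.0%. Some of the latter genes had only summits at the starts of neighbouring genes. The start of the corepressor gene gro carried the strongest of the members' summits.

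The samples were 2 biological replicates of a single group, chm-eGFP ChIP. Each was a chromatin immunoprecipitation with sequencing (ChIP-seq) from whole embryos of 0 to 24 h, of a transgenic strain, chm-GFP, that makes Chm fused to enhanced green fluorescent protein, precipitated with an antibody to GFP. There was no second genotype, age or treatment, so no difference between conditions could be tested. The peaks are those of the tagged protein, over all cells and ages of the embryo, so a few cells with much bound Chm and many cells with little cannot be told apart. A control experiment that the labels name as possible was not used here. Read depth is not given in the files, so no depth stands behind a signal. The labels do not say whether the biological replicates came from separate collections, and an SD over both describes the spread of these 2 samples only. The conservative list, of peaks reproducible between the replicates, held 4195 peaks on the arms, and the pooled list held 6157. The lists of replicate 1 and replicate 2 held 3536 and 4104. Peaks passed into these lists by the irreproducible discovery rate (IDR), which is low where a peak ranks alike in both inputs, and a −log10 IDR of at least 2 went with the threshold of 0.01. Longer ranked lists, for the pair of replicates, the pooled reads and each replicate, also hold the peaks that did not pass. The signal is the peak caller's value for a peak, on a scale that is not given. The conservative and pooled lists gave the same signal at each of the 3814 summits that they place at the same base. The signals of the replicates are set side by side as given, with no depth to scale them by, and over all pooled peaks the median ratio of replicate 1 to replicate 2 was 1.08.

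Notch is a transmembrane receptor that signals between touching cells. The ligands Delta and Serrate on one cell bind Notch on the next, Kuzbanian and then gamma-secretase cut the receptor, and the freed intracellular part enters the nucleus, where it joins Suppressor of Hairless, Su(H), and Mastermind to turn genes on. Without the signal, Su(H) bound to Hairless and Groucho keeps the same genes off. In the fly embryo the pathway limits how many cells of the neuroectoderm become neuroblasts, and the E(spl) genes are the classical targets that carry out this choice. Chm is an acetyltransferase of the MYST family, whose members acetylate histones.

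The core promoters of some members are printed first, chosen to show how their letters differ. All are reference sequence (RefSeq, release 6, the dm6 assembly), written in the direction of transcription and ending 30 bases into the transcript, and positions are counted from the start, which is +1. Capitals mark 4 short motifs, read on both strands. GTCACAC is the core of Motif 1, a promoter element, and CGATA is bound by the insulator protein BEAF-32. TATAAA is the usual form of the TATA box. The letters of the GAGA factor's element were read as GAGAG. The promoters of N (chrX:3134780-3134899, plus strand) and mib1 (chr3L:16011783-16011902, minus strand) hold GTCACAC just before the start, and mib1 and gro (chr3R:26041646-26041765, plus strand) hold CGATA or its complement.
N: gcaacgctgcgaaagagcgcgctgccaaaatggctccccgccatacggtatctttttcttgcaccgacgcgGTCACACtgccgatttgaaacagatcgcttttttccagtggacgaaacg
mib1: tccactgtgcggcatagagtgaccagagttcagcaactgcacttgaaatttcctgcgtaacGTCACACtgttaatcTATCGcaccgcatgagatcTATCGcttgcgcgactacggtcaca
gro, outermost start: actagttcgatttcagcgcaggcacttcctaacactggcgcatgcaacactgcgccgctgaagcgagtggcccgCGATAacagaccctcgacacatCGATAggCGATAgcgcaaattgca

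Delta (chr3R:19326188-19326337, minus strand) and fng (chr3L:20949483-20949632, minus strand) hold runs of GAGAG and no TATAAA here. The conservative summits of both genes lie past the printed bases. Within 100 bp of those summits there is no GAGAG, and near that of fng TATAAA or its complement does occur. The inner start of neur (chr3R:9033702-9033821, minus strand) holds TATAAA at -26.
Delta: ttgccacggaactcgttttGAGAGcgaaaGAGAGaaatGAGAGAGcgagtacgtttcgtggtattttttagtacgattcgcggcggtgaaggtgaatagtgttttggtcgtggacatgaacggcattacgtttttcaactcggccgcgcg
fng: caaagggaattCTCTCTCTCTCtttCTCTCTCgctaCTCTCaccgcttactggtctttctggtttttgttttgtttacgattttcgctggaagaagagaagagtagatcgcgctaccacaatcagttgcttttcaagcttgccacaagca
neur, inner start: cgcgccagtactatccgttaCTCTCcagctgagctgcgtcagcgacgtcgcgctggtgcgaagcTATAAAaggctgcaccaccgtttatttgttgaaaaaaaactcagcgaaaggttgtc

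Of the 11 E(spl) genes, 6 hold both GAGAG and TATAAA between 250 bases before and 50 bases after the outermost start, beside 11.6% of all promoters. Promoters with both are shown for E(spl)m3-HLH (chr3R:26021713-26021852, plus strand) and E(spl)m7-HLH (chr3R:26036928-26037067, plus strand), the E(spl) genes with a conservative summit near their start, and for E(spl)malpha-BFM (chr3R:26010783-26010922, plus strand), whose start has one in the pooled list. E(spl)m8-HLH, E(spl)mbeta-HLH and E(spl)m2-BFM also hold both and are not printed. None of them had a start summit in the conservative or pooled list, though E(spl)mbeta-HLH had one in that of replicate 1. E(spl)mdelta-HLH, with a stronger pooled summit near its start, holds GAGAG and no TATAAA.
E(spl)m3-HLH: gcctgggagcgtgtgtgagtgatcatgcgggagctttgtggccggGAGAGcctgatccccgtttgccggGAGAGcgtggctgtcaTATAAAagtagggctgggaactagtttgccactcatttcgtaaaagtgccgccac
E(spl)m7-HLH: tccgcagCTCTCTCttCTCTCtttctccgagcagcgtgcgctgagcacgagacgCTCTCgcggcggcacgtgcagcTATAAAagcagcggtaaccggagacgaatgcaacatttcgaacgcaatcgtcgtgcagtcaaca
E(spl)malpha-BFM: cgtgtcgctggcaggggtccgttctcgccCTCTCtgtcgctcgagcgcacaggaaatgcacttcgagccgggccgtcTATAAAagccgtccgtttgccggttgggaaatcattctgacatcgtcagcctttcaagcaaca

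The strongest member summit, in an intron of gro, has another sequence. It is printed as 100 bases of the plus strand around the summit (chr3R:26042464-26042563). It holds none of the 4 motifs, and its capitals mark E-boxes (CANNTG), the general letters of bHLH sites.
gro, strongest summit: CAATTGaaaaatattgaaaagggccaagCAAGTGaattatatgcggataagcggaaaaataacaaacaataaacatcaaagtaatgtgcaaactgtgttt

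In the conservative list, 14 of 34 members (41.2%, 95% Wilson interval 26.4 to 57.8%) had a summit within 500 bp of a start, beside 16.8% of all protein-coding genes. A summit inside the gene or within 2 kb was found for 21 of 34 (61.8%), beside 29.0% of all genes. The intervals cover counting error only, and neighbouring genes share summits. In the pooled list 16 members had a summit at a start, beside 21.2% of all genes, and 24 had one inside or within 2 kb, beside 35.7%. The list of replicate 1 gave 15 members, beside 13.5%, and 23 members, beside 24.4%. That of replicate 2 gave 13, beside 17.2%, and 19, beside 29.4%. In every list the members' share thus stood above that of all genes. Outside E(spl), 12 of 23 members (52.2%) had a start summit. In E(spl) 2 of 11 had one, a share of 18.2% that is near the background, and the difference between these groups was not tested.

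**Figure D1:**
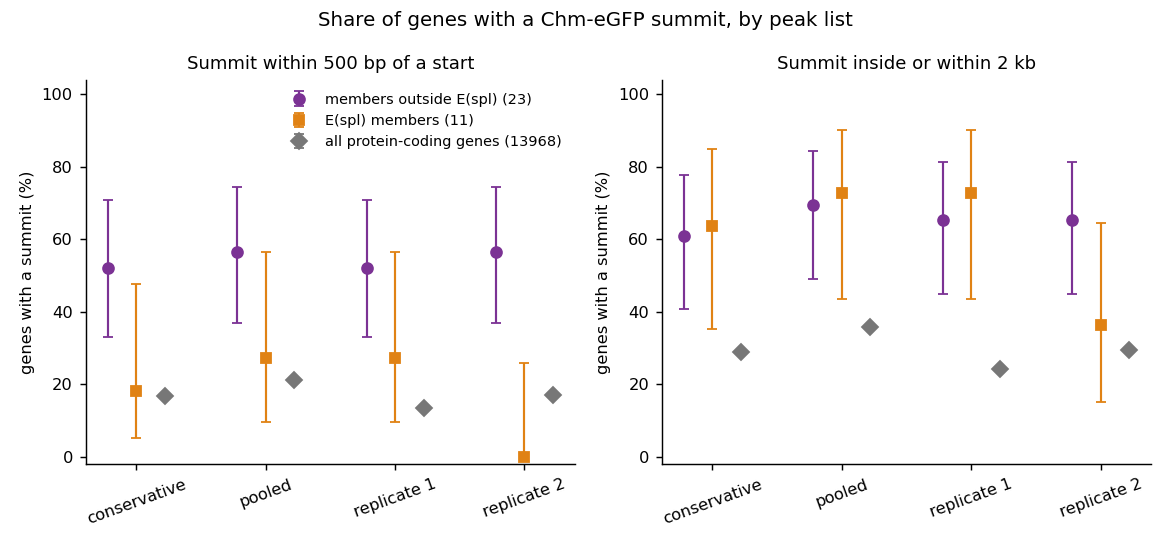
Share of genes with a summit, in percent, by peak list: within 500 bp of a start (left) and inside the gene or within 2 kb (right). Points are members outside E(spl), E(spl) members and all protein-coding genes, and bars are 95% Wilson intervals. At starts the members outside E(spl) lie between 52.2% and 56.5% in the 4 lists, and the E(spl) members lie between 0% and 27.3%.

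Gene length goes with these shares and was set beside them. Among genes of 3536 bp or more, 11 of 16 members (68.8%) had a start summit, beside 28.7% of all such genes. Among genes of up to 1463 bp, which hold all 11 E(spl) members, 2 of 13 members (15.4%) had one, beside 7.75%. Of the members with a single annotated start, 8 of 25 (32.0%) had a summit there, beside 11.9% of all such genes, and of those with 2 to 3 starts 5 of 8 (62.5%), beside 28.1%. The members' share was the larger in each of these classes, and the part of gene function in it was not tested.

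Of the receptor and its ligands, N and Delta had a summit at their only start and Ser had none in the conservative list. N, the receptor, had a summit 67 bp downstream of its start, in the 5' UTR (peak chrX:3134769-3135104), with a signal of 76.9, below the list median of 94.1. Its signals in the separate replicates were 40.1 in replicate 1 and 39.6 in replicate 2, close to each other. A second summit lay in an intron of N, 27661 bp from the start (chrX:3162466-3162587), with a signal of 213, or the percentile 90.0 of the list, and 117 and 94.9 in the replicates. Within N the intron was thus the stronger place in both replicates. The nearest protein-coding start to it, that of CG18508, was 10609 bp away. A further intronic peak beside it (chrX:3162566-3162901) had a signal of 4.24, near the lowest of the list, and no peak over it in either replicate. Delta, a ligand, had a single summit 63 bp downstream of its start (chr3R:19325986-19326321) with a signal of 169. The replicates gave it 127 and 50.4, a mean of 88.5 ± 53.8 (SD, n = 2), so it was past the threshold in both but much higher in replicate 1. Ser, the other ligand, passed the threshold in each replicate on its own, with 45.1 at 10 bp downstream of its inner start in replicate 1 and 50.8 at 15 bp upstream of its outer start in replicate 2. These were different places, and replicate 2 had no peak over the summit of replicate 1. It was in neither the conservative nor the pooled list, where its ranked signal of 65.1 had a −log10 IDR of 0.838 in the paired list and 1.64 in the pooled one.

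Among the factors that act on the ligand or cut the receptor, neur, mib1 and kuz had a start summit. The 4 subunit genes of gamma-secretase had no conservative summit inside or within 2 kb, where 29.0% of all genes had one, too few genes to tell from the background, and 2 of them had one in the pooled list. The gene neur encodes a ubiquitin ligase that drives endocytosis of the ligand. The summit at its inner start, 18 bp downstream (chr3R:9033700-9033791), had a signal of 142, with 61.4 and 83.3 in the replicates. A stronger one lay in an intron 1699 bp downstream of that start, with a signal of 164 and replicate values of 67.2 and 97.3, so at both places replicate 2 was the higher. Its other summits were weaker. They had signals of 63.7 at 3618 bp downstream, 62.7 at 509 bp upstream of the inner start, and 57.4 near the outer start, where the gene hyx begins 112 bp away. The gene mib1 encodes another ubiquitin ligase for the ligands. Its summit 59 bp upstream of the start (chr3L:16011703-16012038) had a signal of 101, with 72.0 in replicate 1, past its threshold, and 41.3 in replicate 2, not past it. A second mib1 summit, 395 bp into the gene in a coding exon, had a signal of 65.3.

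The metalloprotease gene kuz, whose product makes the ligand-dependent cut in Notch, spans 89273 bp and carried its summits at one end. The summit 91 bp downstream of its start (chr2L:13550062-13550397) had a signal of 150.4, with 56.6 and 78.6 in the replicates. One 895 bp upstream, with a signal of 120.4 and replicate values of 87.4 and 37.0, lay 84 bp from the start of the neighbouring gene B4. Replicate 2 was higher at the kuz start and replicate 1 was higher at the B4 start. The paired ranked list held only 8 peaks of any strength inside or within 2 kb of kuz, while genes at large had 87.3 per 100 kb. Whether peaks were called along the rest of kuz is not known here, so the lack of summits there is not read further.

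The gamma-secretase genes differed in how near they came to the threshold. The subunit gene aph-1 had a summit 149 bp upstream of its start in the pooled list, with a signal of 93.5. In the list of replicate 2 it had one of 55.0, at 130 bp upstream, and in that of replicate 1 none. That place is shared with the start of Snx21. The summit nearest to the gene of nicastrin (nct), with a signal of 83.2 in the pooled list and 73.9 in that of replicate 1, lay at the start of CG7006. For Psn, which encodes the catalytic subunit presenilin, the strongest ranked peak had a signal of 44.9 at 77 bp downstream of a start, and for pen-2 a signal of 36.6, with a −log10 IDR of 1.11 and 1.22 in the paired list. Neither gene reached the threshold in any list.

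The glycosylation enzymes had start summits at fng and rumi and a summit of other genes beside O-fut1. The gene fng encodes a glycosyltransferase that changes which ligand Notch answers to. Its summit lay 59 bp downstream of the start (chr3L:20949285-20949620), with a signal of 98.2 and replicate values of 44.7 and 49.9, near each other and both past the threshold. The gene rumi encodes the enzyme that adds glucose to Notch. Its summit 103 bp upstream (chr3R:22750532-22750867) had a signal of 125, with 49.5 in replicate 1, not past the threshold, and 84.3 in replicate 2, past it. The starts of CG7029 and Usp12-46 lie within 500 bp of the same summit, so it cannot be given to rumi alone. A second summit, 1200 bp upstream of rumi, had a signal of 66.8. O-fut1 encodes the enzyme that adds fucose to Notch. The conservative summit within 2 kb of it had a signal of 69.9 and lay beyond its end, at the starts of eIF3m and CG8323. At its own start the strongest ranked peak had a signal of 5.42.

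Of the trafficking and division factors, numb, Nedd4 and bib had start summits, dx had only a neighbour's, and spdo and Su(dx) had none. The gene numb encodes an inhibitor of Notch that is passed to one daughter cell. Its stronger summit lay 207 bp upstream of its inner start (chr2L:9449455-9449790), with a signal of 116 and replicate values of 78.5 and 45.2. The other, 56 bp downstream of the outer start, had a signal of 103 and replicate values of 40.6 and 49.3, so the replicates ranked the numb starts differently. Nedd4 encodes a HECT-type ubiquitin ligase that acts on Notch. It had 4 summits, of which the strongest, 28 bp downstream of a start (chr3L:17533366-17533701), had a signal of 102, with 27.9 in replicate 1, not past the threshold, and 74.6 in replicate 2. Those at 443 bp upstream of the same start, at 437 bp downstream of the outermost start and at 816 bp downstream of another had signals of 100.1, 71.3 and 80.9. The second of these is shared with the start of lncRNA:CR45165. The gene bib encodes a channel-family membrane protein of neural fate choice. Its summit 14 bp downstream of the start (chr2L:9984491-9984826) had a signal of 149 and replicate values of 86.2 and 59.0, both past the threshold. A non-coding gene, lncRNA:CR13130, has a start within 500 bp of it.

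The ubiquitin ligase gene dx, a Notch regulator, stood next to a strong summit that was not at its own start. That summit, 732 bp upstream, had a signal of 165 and replicate values of 76.4 and 88.4, and lay 11 bp from the start of the ribosomal protein gene RpL7A. The strongest ranked peak at the start of dx had a signal of 25.1. For spdo, which encodes a membrane protein of Notch trafficking, the strongest ranked peak at the start had a signal of 39.6, and for the HECT ligase gene Su(dx) one of 38.7. Both were below every peak list's threshold.

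The nuclear factors divided by gene, with summits at gro and mam and no value for Su(H) and H. The gene gro encodes the corepressor Groucho, and its strongest summit (chr3R:26042434-26042597, printed above) had a signal of 336, rank 157 of the conservative list and the percentile 96.3. It lay in an intron, 127 bp upstream of an inner start. The replicates gave it 156 and 191, a mean of 174 ± 24.7 (SD, n = 2), the highest values of any member start in both. A second gro summit, 65 bp upstream of the outermost start (chr3R:26041503-26041838), had a signal of 136, with 86.1 in replicate 1, past the threshold, and 49.7 in replicate 2, not past it. The gene mam encodes the coactivator Mastermind and spans 69154 bp on arm 2R. It carried 10 summits, with signals from 61.7 to 133 and a median of 97.0. Of all protein-coding genes, 14 (0.100%) had at least 10 summits inside or within 2 kb. At the outermost mam start the summit 59 bp downstream had a signal of 109.7, with 63.5 and 54.2 in the replicates, both past the threshold. One summit lay 1 bp from an inner start, with a signal of 82.6, and one of 75.6, at 464 bp upstream, lay 32 bp from the start of RN-tre. The other 7 were in introns, and the strongest of them had signals of 133 at 6520 bp upstream of the inner start and 133 at 658 bp upstream of another start.

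For Su(H), the DNA-binding factor of the pathway, and H, its antagonist Hairless, none of the 4 ranked lists as used here held a peak inside or within 2 kb. The same held for 9.59% of all protein-coding genes. The nearest ranked summits in any list were 3789 bp from Su(H) and 2148 bp from H. Whether peaks were called at these genes is not known here, so no value is given for them, and the counts above hold them as genes without a summit. Without the genes that have no ranked peak, 14 of 32 members (43.8%) had a start summit, beside 18.6% of such genes, and 21 of 32 (65.6%) had one inside or within 2 kb, beside 32.1%. Outside E(spl) the start count was then 12 of 21 (57.1%).

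**Figure D2:**
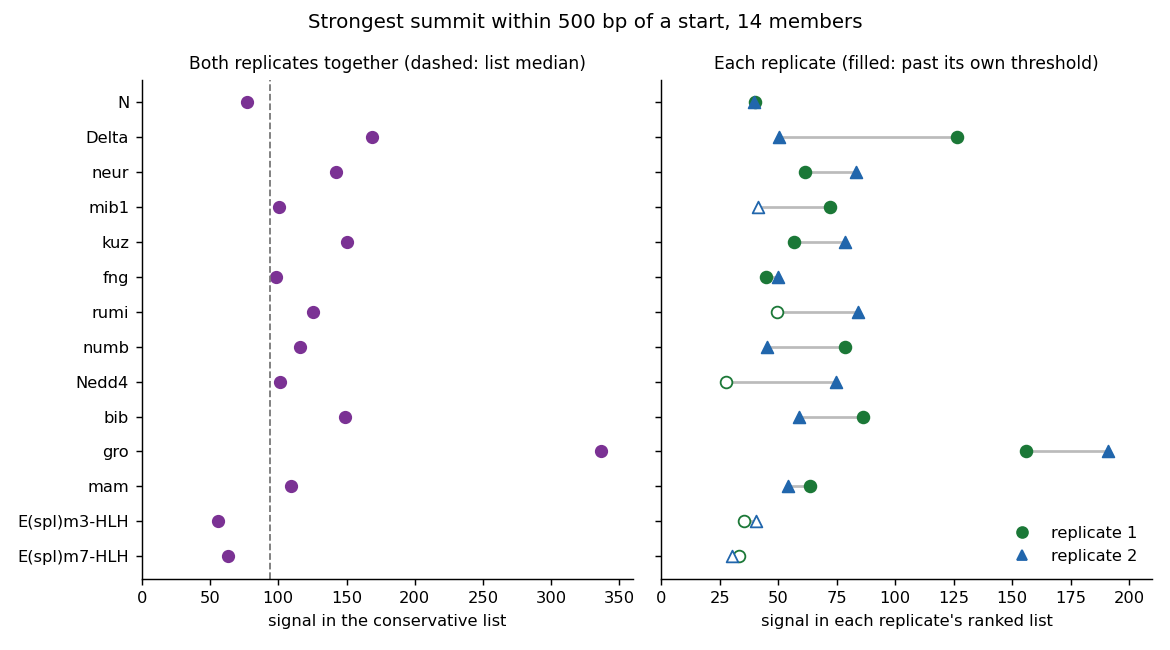
Signal of the strongest summit within 500 bp of a start, for the 14 members that have one, in the order of their roles. Left, the signal in the conservative list, with its median of 94.1 dashed; right, the signal in each replicate's ranked list, filled where the peak passed that replicate's threshold. The gro summit, at 336, stands apart, and N and the E(spl) genes m3-HLH and m7-HLH lie below the median.

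**Figure D3:**
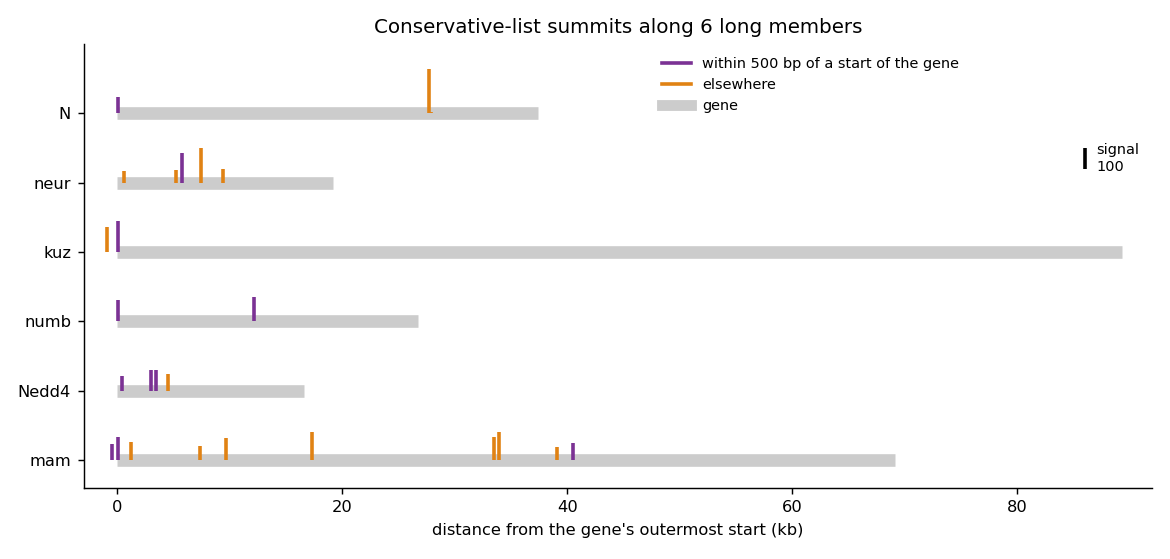
Conservative-list summits along 6 long members, drawn from the outermost start (x axis, kb), with height in proportion to the signal. Violet lines lie within 500 bp of a start of the gene and orange lines elsewhere. In N the intronic summit, at 213, is higher than the start summit, at 76.9, and the summits of mam are spread over its first 41 kb. None is drawn beyond the first kb of kuz, along which ranked peaks of any strength were also few.

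Over the 14 members with a start summit, the strongest one had a median signal of 113, beside 108 for the 2350 genes of the whole annotation that had one. Their percentile in the list was 63.8 at the median, beside 60.6. The members' summits were thus about as strong as those of other genes. In position, 8 of 14 (57.1%) lay at 0 to 100 bp downstream of the start, beside 26.3% of all genes, and 6 (42.9%) lay upstream, beside 65.2%. The median position was +16 bp for members and -54 bp for all genes. On either side of the 500 bp limit the nearest values were those of E(spl)m7-HLH, at 489 bp with a signal of 62.8, and neur, at 509 bp with 62.7.

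**Figure D4:**
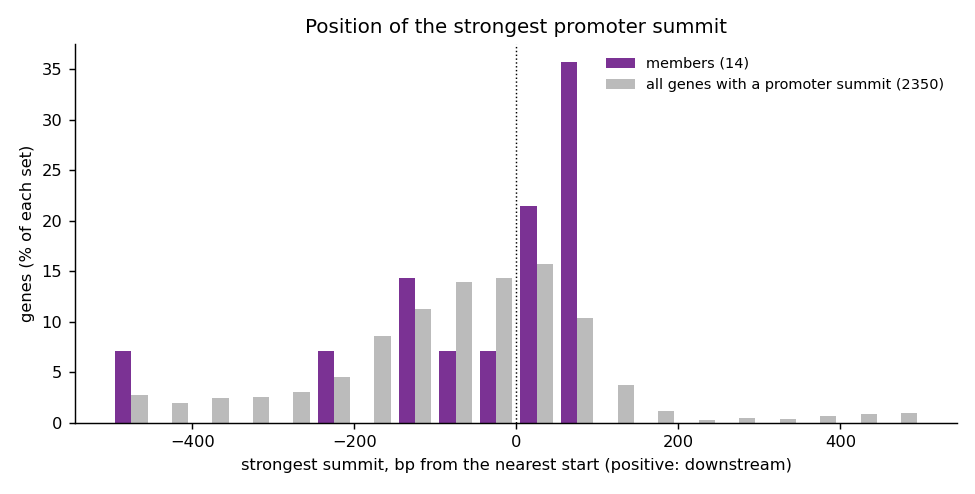
Position of each gene's strongest start summit, in bp from the nearest start (positive values are downstream), as a percentage of 14 members (violet) and of 2350 genes (grey), in bins of 50 bp. The members gather in the 100 bp after the start, which hold 57.1% of them, beside 26.3% of all genes.

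The 11 E(spl) genes stand in a row of 43388 bp on arm 3R (chr3R:25997621-26041008), next to gro. This row held 7 conservative summits, or 16.1 per 100 kb, beside 3.05 per 100 kb of the arms. In the pooled list it held 14, or 32.3 beside 4.48. The replicates differed here: replicate 1 had 10 summits in the row, or 23.0 beside 2.57, and replicate 2 had 2, or 4.61 beside 2.98. Over protein-coding genes with their flanks the density was 4.35 per 100 kb in the conservative list, 6.20 in the pooled list, 3.49 in replicate 1 and 4.46 in replicate 2. That density counts a shared summit once for each gene, unlike the count of the row. Counted in the same way, with flanks, the E(spl) genes had 18.4, 34.9, 25.75 and 7.36 in these lists. They stood above genes at large in each list, and by least in replicate 2. Their flanks also take in summits at the starts of gro and CG43116. Of the 7 conservative signals in the row, from 17.9 to 112, only the highest was above the list median of 94.1. The next, 93.8, was just below it, and the others were weaker.

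The bHLH genes of E(spl) encode repressors of neural fate. The summit of E(spl)m3-HLH lay 33 bp upstream of its start (chr3R:26021622-26021957), with a signal of 55.9 and replicate values of 35.5 and 40.4. That of E(spl)m7-HLH lay 489 bp upstream (chr3R:26036381-26036716), with a signal of 62.8 and replicate values of 33.4 and 30.4. Both were weak for the list, at the percentiles 7.83 and 13.0, and neither passed the threshold of a single replicate. E(spl)m3-HLH had no start summit in the pooled list, where its ranked peak had a −log10 IDR of 1.12. For E(spl)m7-HLH the pooled list instead placed a summit of 65.1 at 70 bp upstream, and replicate 1 placed one of 58.4 at 24 bp upstream. E(spl)m5-HLH had a summit 1032 bp upstream, with a signal of 74.2 and replicate values of 32.0 and 39.1. The nearest conservative summit to E(spl)mdelta-HLH, 1052 bp upstream, was strong, with a signal of 161 and replicate values of 101 and 57.0, but lay within 500 bp of the start of CG43116. In the pooled list E(spl)mdelta-HLH also had one of 85.9 at 375 bp upstream, which lay nearer to the start of CG43116, at 250 bp, and was past the threshold in neither replicate. E(spl)m8-HLH had none but those of gro, which begin 1431 bp from its start.

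E(spl)mbeta-HLH and E(spl)mgamma-HLH had no conservative summit within 2 kb. The ranked peak 62 bp downstream of the start of E(spl)mbeta-HLH had a signal of 74.3 and a −log10 IDR of 1.99 in the paired list, just short of 2, and in the list of replicate 1 a peak there passed with a signal of 52.0. The ranked peak of E(spl)mgamma-HLH, at 432 bp downstream, had a signal of 57.1 and a −log10 IDR of 0.899.

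The Bearded family genes of E(spl) encode small inhibitors of Neuralized. None of these 4 had a conservative summit at its start, which 4 genes cannot tell from the 16.8% of all genes. E(spl)malpha-BFM had 3 around it, of which the strongest, 1795 bp upstream (chr3R:26008930-26009265), had a signal of 112 and passed in both replicates, with 65.9 and 52.5. Another, 810 bp downstream and past the end of the gene, had a signal of 93.8, with 64.9 in replicate 1 and 28.7 in replicate 2, and a weak one of 17.9 lay 1574 bp upstream. At the start itself the pooled list held a summit of 62.6 at 7 bp and replicate 1 one of 42.5 at 123 bp. E(spl)m4-BFM had a summit 965 bp upstream, with a signal of 70.2 and replicate values of 40.6 and 28.5. For E(spl)m2-BFM the summit 821 bp upstream had a signal of 75.4 in the pooled list, and one 804 bp upstream had 61.7 in replicate 1, without a conservative peak. For E(spl)m6-BFM the strongest ranked peak within 2 kb had a signal of 47.2 and no list had one past the threshold.

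**Figure D5:**
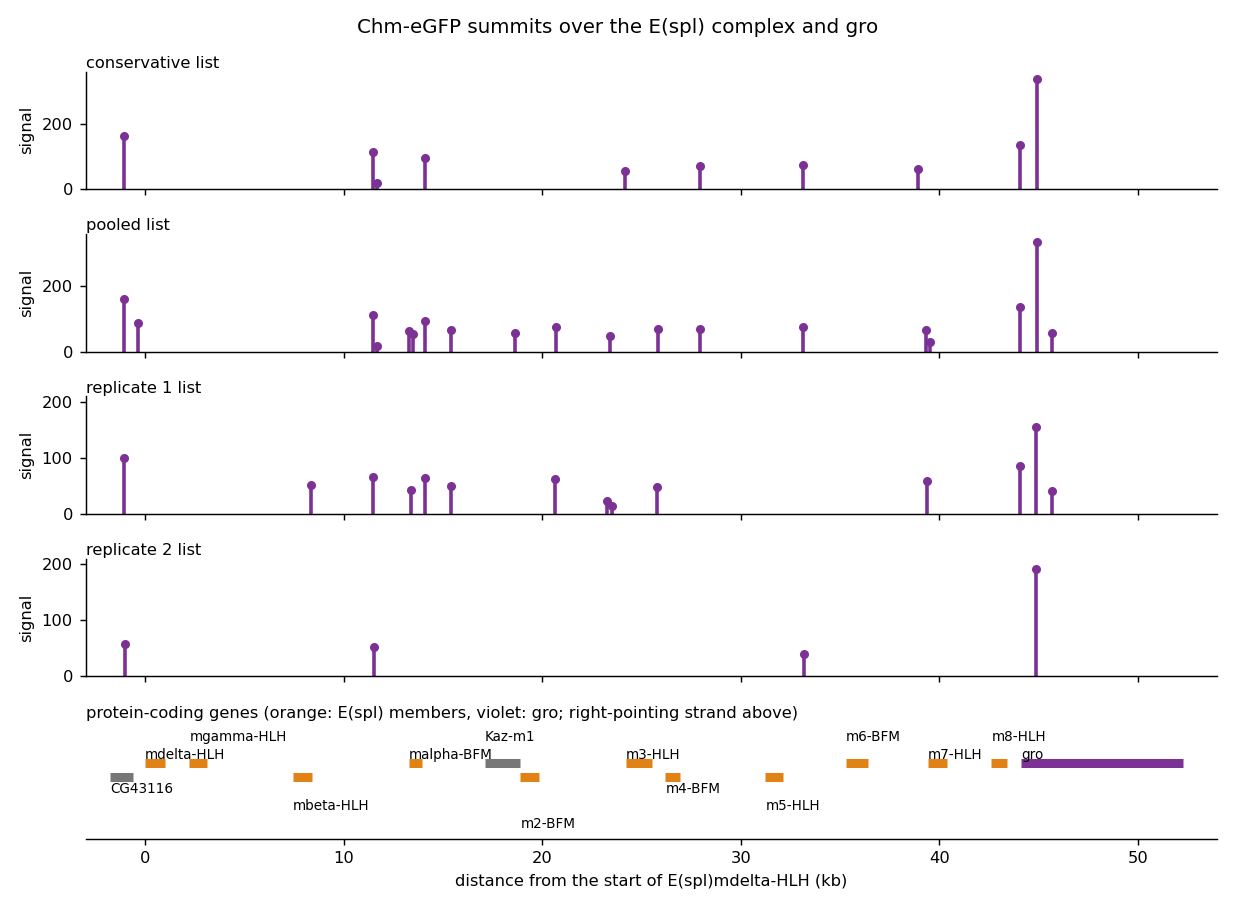
Summits past the threshold over the E(spl) complex and gro, by distance from the start of E(spl)mdelta-HLH (kb) and signal, in 4 lists, above the protein-coding genes. The conservative and pooled lists share their signals, and those of the replicates come from their own lists. Replicate 1 has 10 summits between the start of mdelta-HLH and the end of m8-HLH and replicate 2 has 2, while the strongest gro summit is in every list.

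The lean toward replicate 1 in E(spl) could also be read in the signals, but this is not a separate observation. The pooled list can hold peaks past the threshold in replicate 1 alone, so these signals and the counts above overlap. In the pooled list, 16 summits belonged to E(spl) genes and not to a gro start, and 12 of them had a signal in both replicates. Replicate 1 was higher at 11 of these 12, with a median ratio of replicate 1 to replicate 2 of 1.85. For member summits outside E(spl) the median ratio was 1.09, with replicate 1 higher at 28 of 50, and for all pooled peaks it was 1.08, with replicate 1 higher at 56.4%. In the conservative list, which needs both replicates, the E(spl) ratio was 1.25, with replicate 1 higher at 5 of 7. For all conservative peaks the ratio was 1.08, with replicate 1 higher at 57.6%. The number of E(spl) genes with a start summit was 2 in the conservative list and 3 in the pooled list. It was 3 in that of replicate 1 and 0 of 11 in that of replicate 2. Of all protein-coding genes, 16.8%, 21.2%, 13.5% and 17.2% had one in these lists, in the same order. The Wilson interval was 5.14 to 47.7% for 2 of 11, 9.75 to 56.6% for 3 of 11 and 0 to 25.9% for 0 of 11. These intervals overlap and each holds its list's share of all genes. The counts thus cannot be told from the background or from each other. The genes differed between lists, and only E(spl)m7-HLH had a start summit in both the conservative and the pooled list. The cause of the lean toward replicate 1 in E(spl) was not tested.

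Across all members, 20 of the 45 distinct conservative summits were past the threshold in both replicate lists, 13 in one and 12 in neither. For all 4195 conservative summits these shares were 45.8%, 34.1% and 20.2%. A start summit in all 4 lists was found for 10 of 34 members, beside 10.1% of all protein-coding genes. They were N, Delta, neur, kuz, fng, numb, Nedd4, bib, gro and mam. Of the 45 summits, 21 lay within 500 bp of a member's start, and 5 of the other 24 lay at the start of a different gene. In the annotation of the member, 18 were in introns, 14 upstream, 10 in 5' UTRs, 2 downstream and 1 in a coding exon. The same placement was not computed for all 4195 conservative summits, so these counts describe the members only.

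Letters of the site that Su(H) is known to bind stood in the promoters of some E(spl) genes. Su(H) sites were read as TGTGAGAA, TGTGGGAA, CGTGAGAA or CGTGGGAA on both strands. In promoters from 250 bases before to 50 bases after the outermost start, 3 of 11 E(spl) genes (27.3%) and 1 of 23 other members (4.35%) held one, beside 3.18% of all promoters. They are printed in capitals for E(spl)m8-HLH, at -224 and -199 (chr3R:26040005-26040054, plus strand), for E(spl)m5-HLH, at -146 (chr3R:26029861-26029895, minus strand), and for E(spl)m4-BFM, at -83 (chr3R:26024640-26024679, minus strand).
E(spl)m8-HLH: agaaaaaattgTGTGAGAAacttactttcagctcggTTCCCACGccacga
E(spl)m5-HLH: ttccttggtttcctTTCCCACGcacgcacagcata
E(spl)m4-BFM: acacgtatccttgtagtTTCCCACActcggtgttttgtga
Within 100 bp of the 45 member summits none held these letters, beside 1.91% of all conservative summits, so the count is near the background. A match is a string of letters and not a bound site.

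Some of the other letters differed between E(spl) and the remaining members, by description only. N-box letters (CACNAG) were about as common in both, at 5 of 11 (45.5%) and 10 of 23 (43.5%), beside 29.7% of all promoters. TATAAA stood in 9 of 11 E(spl) promoters (81.8%) and 9 of 23 other members' promoters (39.1%), beside 45.8% of all promoters. GAGAG stood in 7 of 11 (63.6%) and 8 of 23 (34.8%), beside 29.7%. CGATA stood in 0 of 11 and 11 of 23 (47.8%), beside 47.3%. GTCACAC stood in 1 of 11 and 5 of 23 (21.7%), beside 9.47% of all promoters and 13.9% of the promoters with a Chm summit. Within 100 bp of summits, GTCACAC was found at 5 of 45 member summits (11.1%), beside 4.72% of all conservative summits. E-boxes (CANNTG) were at 30 of 45 (66.7%), beside 63.5%, and GAGAG at 14 of 45 (31.1%), beside 33.1%.

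The wider pathway was read from a list of 42 related genes, of which 40 were matched to the annotation. A conservative start summit was found for 12 of 40, beside 16.8% of all genes, and a pooled one for 19 of 40, beside 21.2%. The strongest in each list of related genes were those of emc, an inhibitor of proneural proteins, at 424; l(2)gd1, an endosomal sorting factor of Notch, at 362; Fur1, a furin protease, at 143; Tom, a Bearded family gene, at 142; the homeobox gene ct, a Notch target at the wing margin, at 125; hry, a bHLH repressor like those of E(spl), at 103; and skd, a subunit of the Mediator kinase module, at 98.3. The signals of emc and l(2)gd1 were above that of any member. Of the 7 proneural genes and partners, emc and da, which encodes the common partner of proneural proteins, had a start summit in each of the 4 lists, and the signal of da was 84.1 in the conservative list. The other 5, ac, sc, l(1)sc, ase and ato, had none in any list, too few genes to tell from the 16.8% of all genes. Among them, 2 had no peak of any strength inside or within 2 kb in the paired ranked list, beside 19.3% of all genes. As for Su(H) and H, whether peaks were called there is not known here. The Bearded family genes outside E(spl), Tom, Brd, Ocho and BobA, also differed between lists. Of these 4, 1 had a start summit in the conservative list, beside 16.8% of all genes, 4 in the pooled list, beside 21.2%, 3 in that of replicate 1, beside 13.5%, and 0 in that of replicate 2, beside 17.2%.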

How the data were processed

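Peaks of chm-eGFP ChIP were given for 2 replicates of embryos, separately and together, on dm6, per the file names; for aligner and caller, a name is not given in the sources used here. Lists by the authors come ranked by the irreproducible discovery rate (IDR), low where peaks keep their rank in both inputs, and past a threshold. Signal is a deposited value per peak from the caller, of unknown scale. The deposited score is a scaled form of the IDR and is 830 or more past the threshold. The deposited −log10 column of the ranked lists holds the global IDR. Which ranked list the conservative list came from was read from its peaks.

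Computed here with Python 3.11.15, pandas 2.3.3 and numpy 2.4.6: summits on 7 arms were placed within 500 bp of any start, and inside or within 2 kb, of genes of Ensembl release 115 (BDGP6.54), whose arms match RefSeq release 6 and hold all peaks. Replicate signals are those of the strongest ranked peak of each replicate over the conservative summit. Shares have Wilson intervals (statsmodels 0.14.6). No p-value was computed, since 1 group allows no contrast and a test of the list is not made here. Assignment of summits was tested on simulated data. Alternatives were the other lists, stronger peaks, other windows, flanks and starts, any base of a peak, and, added after seeing the data, leaving out genes with no ranked peak.

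All members are accounted for: full values for those with a start summit, the strongest summit or ranked peak for the rest, the strongest gene of each related list, and neighbours within 500 bp of a summit; other genes named for related lists were chosen after their values were seen. Members and lists were chosen with earlier results of these data known. The symbols BobB and BobC were not matched, and nct was matched as Nct.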

Additional observations from a re-analysis of the deposited data

How the results depend on the processing

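Between 11 and 17 members had a start summit under every alternative tried, against 14 in the conservative list. The share of all protein-coding genes moved as well, from 10.3% to 21.2%, against 16.8%. The lowest count, with peaks at or above the list median, stood beside 10.3%, and the highest, in the 1000 bp window, beside 19.3%. Of the 95 values recomputed under alternatives, 76 stayed close, which for counts and shares means within 1.5 times and for median signals within 1 SD of the replicate lists' medians (2.45). Leaving out genes with no ranked peak, chosen after seeing the data, could move neither count of members, because such genes hold no conservative summit. Both counts are among the 76, so there they show nothing. The pooled list gave 70 distinct member summits in place of 45, 1 Bearded family gene of E(spl) in place of 0, and a median signal of 106 in place of 113. Peaks at or above the list median gave 24 member summits, 0 E(spl) bHLH genes in place of 2, 1 of the receptor and ligands in place of 2, and 10.3% of all genes in place of 16.8%. The 250 bp window gave 1 E(spl) bHLH gene, beside 14.5% of all genes, and the 1000 bp window 2 Bearded family genes, beside 19.3%. Both gave a median signal of 116, and the outermost start alone gave 103. With no flank, 11 members in place of 21 and 29 summits remained, and the share of all genes at this setting was not computed. Without a replicate, that is in the list of the other, the median signal was 55.0 to 58.4, on another scale, the E(spl) bHLH genes were 0 to 2, the Bearded family genes 0 to 1 and the glycosylation genes 1 to 2. The cause of these shifts was not tested, beyond the fewer peaks that a stricter setting leaves. No paired analysis was possible because there is 1 group. Unknown depth limits what a missing peak can show, and the 2 replicates allow no test of their difference.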
